A study of Homo sapiens with 2 samples.

Results

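Single-site genes are genes in which both GLORI libraries of HEK293T cells listed exactly 1 methylated adenosine in common, although the gene was well covered by reads. GLORI treats RNA with glyoxal and nitrite, which turn unmethylated adenosine into inosine. Inosine is read as G, and N6-methyladenosine (m6A) is still read as A, so the share of A reads at a position is its methylation level. HEK293T is an established human embryonic kidney line, and both libraries were made from poly(A) RNA of wild-type cells, day 0, treated by GLORI. The labels give 2 replicates of this 1 group and no second group, and do not say whether the replicates came from separate cultures.

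A site counted as shared where both libraries listed it at 1 position and on 1 strand, and the level given for it averages the 2 libraries. There were 60462 shared sites, of which 56106 lay in 9521 named genes. Of these genes, 2234 had exactly 1 shared site, and 1206 of them were left out because their mean gene coverage, a depth value deposited by the authors for each gene, was below 30. The remaining 1028 lone sites, 1.83% of the shared sites in named genes, are described here. They were chosen by the number of listed sites and by gene coverage, so both are described without a test. The smallest level in either list was 10%, the smallest count of A reads 5 and the smallest coverage 15 reads, so a lone site is the only shared site above those limits and the gene may hold weaker ones. All 5 genes chosen as marks of HEK293T (PAX2, VIM, NEFM, NEFL and INA) had a listed site in both libraries. Markers of hepatocytes, leukocytes, erythroid cells, fibroblasts and keratinocytes (ALB, PTPRC, HBB, COL1A1 and KRT5) had none in either, although the lists hold methylated sites and not expression.

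Most m6A in messenger RNA is placed by the METTL3-METTL14 methyltransferase complex in the DRACH motif (A, G or T, then A or G, then A, C, and then A, C or T, with the middle A methylated). It is known to be dense around stop codons and in long exons. An adenosine that is the first transcribed nucleotide can instead carry m6Am, a 2'-O-methylated form of m6A made by PCIF1 next to the cap. A cap-adjacent m6Am also resists the GLORI reaction, so an A read there does not tell the modifications apart.

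Sequence was at hand for 113 lone sites, those close to an annotated gene start, and all 113 fell on an A. Each line below holds 30 bases, 5′ to 3′ on the strand of the gene, from RefSeq's GRCh38.p14 promoter sequences. The first 6 are lone sites at an annotated first nucleotide, shown because this place recurred among the lone sites. The capital marks the methylated A.

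TUBA1B: cgccggccccgccctAgtgcgttacttacc

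MIF: aaaaggcgggaccacAgtggtgtccgagaa

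CCT2: cttccggcttccttcAgtccgctggtcccg

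TCEAL9: tgcagaagtcctggtAatctggtccttgtt

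SEC61B: ggcggggcctgagtcAgtctcgccagctgc

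HMGN1: tcccaatccggttccAtccggttctcccac

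They lie at chr12:49131381-49131410 (minus strand, TUBA1B), chr22:23894368-23894397 (plus, MIF), chr12:69585444-69585473 (plus, CCT2), chrX:103356491-103356520 (plus, TCEAL9), chr9:99222267-99222296 (plus, SEC61B) and chr21:39349074-39349103 (minus, HMGN1).

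The next 4 are the deepest lone sites with sequence that lay outside DRACH and away from the first nucleotide.

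RPS3A: tctcgcgcgactcccActtccgcccttttg

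CKS2: gggactgcggtcgttAgtctccggcgagtt

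COX7B: tttgtttttcagctcActtcaagggtacct

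ATP5PB: gacttgtgagcggccAtcttggtcctgccc

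They lie at chr4:151099606-151099635 (plus, RPS3A, 7 nt upstream of the annotated start), chr9:89311183-89311212 (plus, CKS2, 3 nt downstream), chrX:77899465-77899494 (plus, COX7B, 12 nt downstream) and chr1:111449450-111449479 (plus, ATP5PB, 1 nt downstream).

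The last 4 show the contrast, lone sites in GGACT, a common form of DRACH. They were chosen after their values were seen, and the capitals mark the 5 bases of the motif.

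PSMB4: agcgtttttggggtcgcggtccGGACTttg

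CENPW: gattcgaacgttcGGACTgaggtttttctg

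UBE2M: ccaggccggagccGGACTacgggagccgag

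SCCPDH: ctgggctcgctgtGGACTcgtcatggcgac

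They lie at chr1:151399593-151399622 (plus, PSMB4, site 44 nt downstream of the start), chr6:126340130-126340159 (plus, CENPW, 30 nt downstream), chr19:58558565-58558594 (minus, UBE2M, 32 nt downstream) and chr1:246724401-246724430 (plus, SCCPDH, 7 nt downstream).

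Lone sites were mostly weakly methylated. Their median level was 24.1% (95% order-statistic interval over sites 22.8 to 25.6, n = 1028), with quartiles of 16.6% and 41.6% and a range of 10.3% to 100%. In replicate 1 the median was 24.3% and in replicate 2 it was 23.7%. Sites of the 3977 genes with several shared sites, under the same minimum of gene coverage, had a median of 39.6% (39.1 to 40.2, n = 32604). The median gene coverage was 58.0 in those genes and 71.8 in the single-site genes, so this contrast is not matched for coverage. Below a level of 20% lay 380 lone sites (37.0%), against 20.2% of the sites in genes with several. At a level of 80% or more lay 50 lone sites (4.86%), where the share over all shared sites of these genes was 17.1%. Genes with exactly 2 shared sites lay in between, with a median of 28.2% over 1482 sites, and genes with 3 or more had 40.4% over 31122 sites. The number of shared sites chose the genes and depends on level through the 10% limit, so these differences are a description; the part of that limit in them was not tested.

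**Figure D1:**
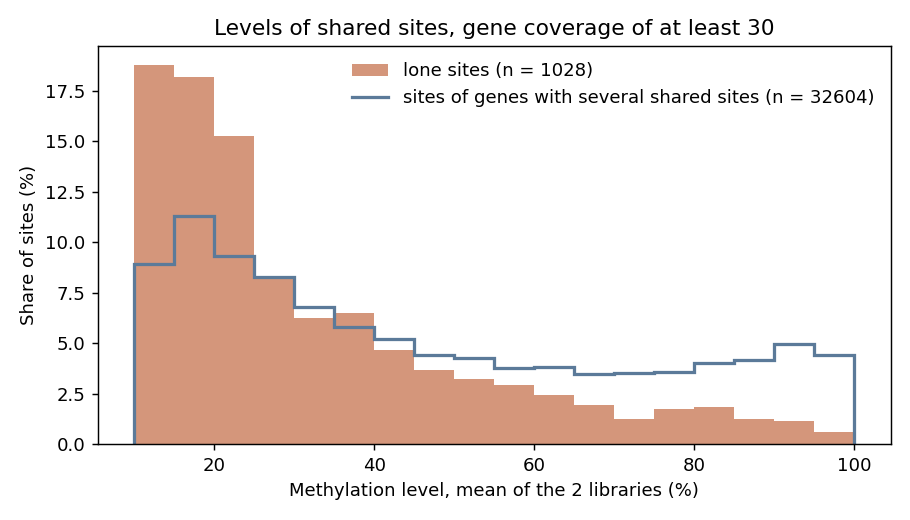
Methylation level of shared sites (percent, mean of both libraries, in steps of 5 points) against the share of sites (percent), for lone sites (filled bars, n = 1028) and sites of genes with several shared sites (line, n = 32604), both at a gene coverage of at least 30. The lone sites pile up between 10% and 25% and thin out above it, whereas the other sites spread up to 100%.

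Depth went with level in both kinds of gene. Lone sites with 30 to 100 reads summed over both libraries had a median level of 34.9%, and those with 500 or more had 18.4%. In genes with several sites the same classes had 48.03% and 27.8%. The lists hold no site with fewer than 5 A reads, so a site with few reads is listed only at a higher level. Part of the fall with depth is thus set by the lists, and how much was not tested. By gene coverage, the lone median was 28.5% at 30 to 50, 24.6% at 50 to 100, 22.1% at 100 to 200 and 20.9% at 200 and over. The corresponding medians of sites in genes with several were 44.4%, 37.9%, 32.4% and 28.4%. Lone sites sat lower in every class, and the lone median minus the other was -15.9, -13.3, -10.3 and -7.47 percentage points in that order. Averaged over the classes by their number of lone sites, it was -12.4 points.

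Single-site genes were more frequent among the best covered genes. Over all 5005 named genes with a shared site and a coverage of at least 30, the share with 1 shared site was 20.5% (95% Wilson interval 19.4 to 21.7). It was 16.5% at a coverage of 30 to 50 (314 of 1908), 18.8% at 50 to 100, 23.4% at 100 to 200 and 36.6% at 200 and over (196 of 536). Annotated spans of the protein-coding genes differed little between single-site genes and genes with several in the same class. At 30 to 50 the medians were 30476 and 30150 bases, and at 200 and over they were 8670 and 9709 bases.

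Both libraries gave similar levels at the lone sites. Summed over both, the median was 152 reads, with a range of 32 to 19960. The level differed between libraries by a median of 3.45 points over all lone sites, and by 1.48 points over the 173 with at least 200 reads in each. Across lone sites, Pearson's r between libraries was 0.937 and Spearman's rho 0.894 (n = 1028 sites of the same 2 libraries). Fisher's exact test on A and G reads, run site by site, found 0 of 1028 lone sites different at a Benjamini-Hochberg adjusted p under 0.05 over all shared sites, where the share over all 60462 was 0%. At an unadjusted p under 0.05 it found 38 (3.70%), where the share over all shared sites was 3.06%. A chi-square test at the same limit found 46 lone sites (4.47%), and 2590 of all 60462 shared sites. The smallest unadjusted p-values belonged to HCCS, a mitochondrial haem lyase, PTMAP10, a prothymosin pseudogene, and TSR2, a ribosome biogenesis factor. HCCS had 34.4% in replicate 1 and 10.8% in replicate 2, from 61 and 65 reads (exact p = 0.0023, adjusted p = 1). PTMAP10 had 11.4% and 14.2%, and TSR2 had 59.7% and 48.01%. No lone site was called different after adjustment, and the libraries are counted as 1 sample below, with the value of each shown. The test cannot show that the libraries agree. It took only sites listed in both, and its power was simulated only for shifts of 30 points with at least 100 reads in each library.

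**Figure D2:**
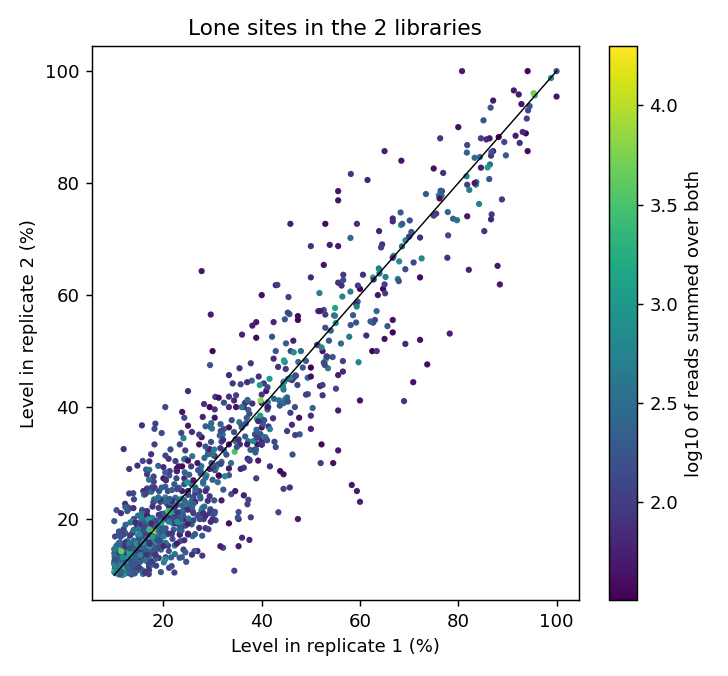
Level of each of the 1028 lone sites in replicate 1 (percent) against replicate 2 (percent), coloured by the log10 of the reads summed over both, with the line of equality. Deeply read sites lie close to the line, and the sites far from it have few reads (HCCS, 34.4% against 10.8%, has 126).

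Being alone among shared sites did not always mean being alone in the lists. In 500 of the 1028 genes (48.6%) the lists held only the lone site. Another 305 genes had 2 listed sites in the 2 files together, 143 had 3 and 80 had 4 or more, with at most 8. Replicate 1 listed 371 further sites that replicate 2 did not, at a median level of 13.4% and 52 reads, and replicate 2 listed 504 that replicate 1 did not, at 14.8% and 46 reads. The lone sites themselves had medians of 70 and 80.5 reads in those libraries. The further sites thus lay close to the lower limit of level. Genes with only the lone site had a median level of 22.6%, and the others 25.4%.

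At the gene start, lone sites gathered on a single base. The annotated first nucleotide held 70 of the 1007 lone sites whose gene was found in the annotation (6.95%, Wilson 5.54 to 8.69), where the share over all sites of these genes was 0.92%. Of the sites in genes with several, 238 of 32455 (0.733%) lay there. Counted by gene, the shares were much closer, 6.95% of single-site genes and 6.03% of the 3949 genes with several. In protein-coding genes alone, the shares by gene were 8.05% (Wilson 6.31 to 10.2) and 6.29% (5.55 to 7.12). These intervals overlap, and the difference was not tested. By the rule, such a site is the only shared one of a single-site gene. Among the 70, 60 were in protein-coding genes and 10 in pseudogenes. Within 5 nt of the start lay 103 lone sites (10.2%), against 1.02% of the sites and 7.95% of the genes with several.

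**Figure D3:**
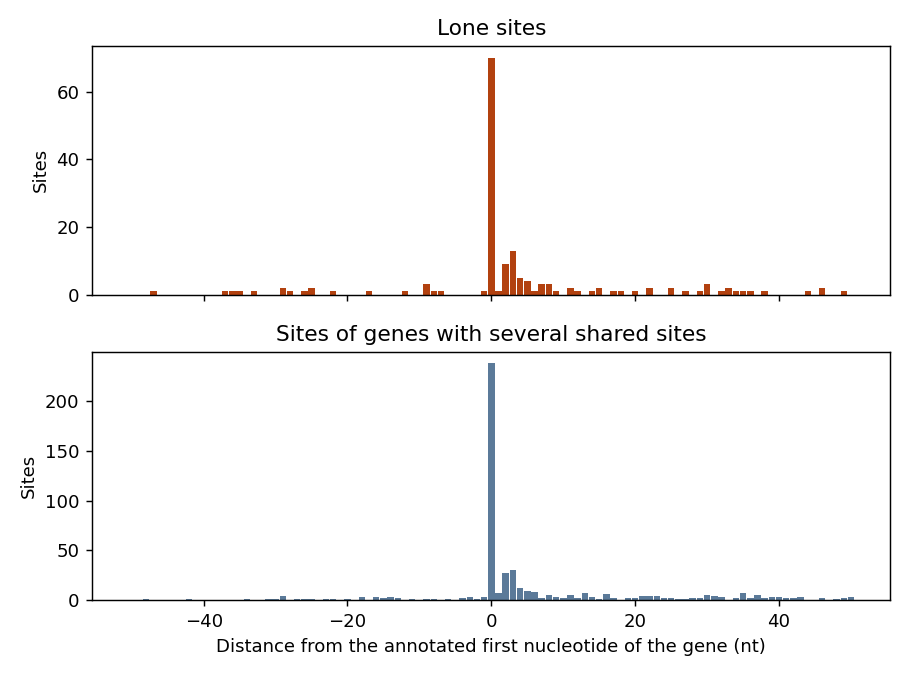
Number of lone sites (top) and of sites in genes with several shared sites (bottom) at each distance, in nucleotides, from the annotated first nucleotide of the gene. Both panels have a sharp peak at distance 0, of 70 and 238 sites, with a lower shoulder just downstream.

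The first-nucleotide sites of protein-coding genes had a median level of 24.7% (quartiles 18.3% and 34.2%, range 11.7% to 62.9%), close to the 23.7% of the 685 protein-coding lone sites elsewhere. The deepest was TUBA1B, an alpha-tubulin of the microtubules, at chr12 position 49131395. It had 62.6% of 1004 reads in replicate 1 and 63.2% of 1121 in replicate 2 (Wilson interval of the summed counts 60.8 to 65.0), the highest of the 60. ATP5F1B, the catalytic beta subunit of ATP synthase, followed at chr12 position 56645984, with 54.9% of 648 reads and 57.7% of 721. MIF, a cytokine-like tautomerase, had 41.6% and 45.0% from 541 and 555 reads at chr22 position 23894383, although its gene coverage of 7764 was the largest of all single-site genes. ARF4, a small GTPase of the Golgi, had only 13.3% and 13.7%. Both replicates gave the same order of these 4 genes.

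The other genes shown above by sequence spread between these. SEC61B, a subunit of the endoplasmic reticulum translocon, had 30.3% and 32.4%, and CCT2, a subunit of the cytosolic chaperonin, 27.6% and 28.6%. TCEAL9 had 20% and 16.9%, and HMGN1, a nucleosome-binding protein, 14.9% and 18.2%. The pseudogenes ran higher, with a median of 57.0% over their 10 first-nucleotide sites (range 12.3% to 84.4%). FTH1P8, a ferritin heavy chain pseudogene, had 86.0% and 82.8%, and TUBAP2, a tubulin alpha pseudogene, had 66.9% and 67.0%.

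By sequence, the base before the first-nucleotide A was C in 35, T in 12 and G in 5 of the 52 lone sites with sequence there. A pyrimidine thus preceded 90.4% (Wilson 79.4 to 95.8), against 95.6% of 206 in genes with several and 83.5% of all 12088 annotated starts that begin with A. Only 1 of the 52 was in DRACH, and 4 of the 206. From 1 to 5 nt on either side of the start, 0 of 23 lone sites were in DRACH, which allows up to 14.3% by the Wilson interval, and 4 of 75 in genes with several. Farther than 5 nt from the start, DRACH held 8 of 38 lone sites (21.1%, Wilson 11.1 to 36.3) and 61 of 152 sites of genes with several (40.1%, 32.7 to 48.1). These intervals overlap, and the difference was not tested. From 6 to 47 nt downstream alone, DRACH held 5 of 24 lone sites (20.8%) and 35 of 90 sites of genes with several (38.9%). For scale, 7.45% of all A in that stretch of 27305 annotated starts lie in DRACH on the gene's strand. At least 1 such motif was held by 46.1% of those windows. No such scale was computed upstream of the start. The rest of the lone sites lie outside the sequences at hand, so these shares speak only of sites near gene starts.

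Of the 4 sites printed above that lay outside DRACH and away from the first nucleotide, CKS2, a cyclin-dependent kinase subunit, had the highest level, with 52.2% of 274 reads in replicate 1 and 50.7% of 306 in replicate 2. ATP5PB, a peripheral-stalk subunit of ATP synthase, had 22.8% and 22.6%. COX7B, a subunit of cytochrome c oxidase, had 15.5% and 20.1%. RPS3A, a protein of the small ribosomal subunit, had 14.2% and 10.3%, and its site lay upstream of the annotated start. The 4 sites in GGACT covered a similar range of levels. CENPW, a centromere protein, had 35.9% and 40%, UBE2M, the NEDD8-conjugating enzyme, 27.9% and 17.0%, SCCPDH 15.5% and 17.1%, and PSMB4, a beta subunit of the proteasome, 17.0% and 12.3%.

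Toward the other end of the gene, 286 of 745 lone sites in protein-coding genes (38.4%, Wilson 34.97 to 41.9) lay within 1000 nt of the annotated gene end, where the share over all such sites was 27.2%. Sites of genes with several had 26.9%. Counted by gene the order turned: 63.4% of the genes with several had at least 1 shared site there. The rule gives those genes more sites, so a count of at least 1 favours them by construction. The last 10% of the gene span held 44.4% of lone sites and 45.4% of the others. Lone sites near the end had a median level of 25.6%.

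The 8 deepest lone sites lay in 3 genes of the ribosome, TMSB10, mitochondrial RNA and 3 other loci. RPSA, the laminin receptor and a protein of the small ribosomal subunit, led with 11.7% of 9179 reads and 11.3% of 10781 at chr3 position 39411962, 580 nt from the gene end. RACK1, a scaffold protein on the small ribosomal subunit, had 17.4% of 7815 reads and 17.7% of 9278 at chr5 position 181239108, and was the only listed site of its gene. RPL27A, a protein of the large subunit, had 10.9% and 11.6% at chr11 position 8684812. TMSB10, an actin-sequestering thymosin, stood apart from these with 51.6% of 3593 reads and 51.1% of 4074 (Wilson 50.2 to 52.4) at chr2 position 84906590, 81 nt from the gene end. The other deep sites were in copies or unannotated genes. RPL27AP6 had 10.9% and 11.9%, UBBP4, a ubiquitin pseudogene, 18.9% and 18.2%, and LOC100422561, which had no match in the annotation, 18.2% and 17.7%.

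Mitochondrial RNA gave 4 lone sites. Known 1-methyladenosine (m1A) lies in the large ribosomal RNA, in the ND5 messenger and at the ninth nucleotide of several transfer RNAs, and an A read by itself does not name the methyl group. RNR2, the large ribosomal RNA, had 39.8% of 3020 reads and 41.2% of 3506 at chrM position 2617, nucleotide 947 of the gene. ND5, a subunit of complex I, had 17.1% and 18.2% at position 13710, nucleotide 1374 of the gene. TRNV had 23.3% of 86 reads and 18.3% of 104 at nucleotide 9, and TRNS2 39.7% and 38.5% at nucleotide 23. RNR2 and TRNS2 were above ND5 and TRNV in both libraries, and which methylation these A reads carry was not tested.

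The most methylated lone sites were few and of mixed depth. Of the 50 at 80% or more, 33 were in protein-coding genes and 17 in pseudogenes, and 13 and 11 of these had under 100 reads. Of all 1028 lone sites, 322 fell in the class of 30 to 100 reads, and 23.2% were in pseudogenes. LOC110467526, annotated as a pseudogene, had 98.9% of 353 reads and 98.8% of 405 at chr20 position 30512433. MRPL32, a protein of the large mitochondrial ribosomal subunit, had 100% of 70 and 100% of 85 reads at chr7 position 42937475 (Wilson 97.6 to 100), 382 nt from the gene end. HADH, an enzyme of fatty acid beta-oxidation, had 94.5% and 93.8% at chr4 position 108034821, 350 nt from the gene end. CISD3, an iron-sulfur protein of mitochondria, had 94.2% and 93.0%, and TM7SF2, a sterol reductase, 93.9% and 91.5%. CHCHD3, a protein of the mitochondrial cristae junctions, had 100% of 23 and 95.5% of 22 reads, too few to place it more closely than 88.4% to 99.6%. The gamma-actin pseudogenes ACTG1P9, with 95.3% and 96.1%, and ACTG1P3, with 95.6% and 95.7%, were by far the deepest of this class, with 4950 and 2315 reads.

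At the bottom, deep sites sat on the lower limit of the lists. PSMC5, an ATPase of the proteasome, had 10.0% of 240 reads and 10.5% of 323. PABPC1, the cytoplasmic poly(A)-binding protein, had 10.1% of 1262 and 10.7% of 1442. TOMM34, a chaperone of mitochondrial import, had 10.2% and 10.8%, and ROMO1, a small mitochondrial membrane protein, 10.9% and 10.1%. The pseudogenes HNRNPDP1 (10.2% and 10.3%) and PGAM1P4 (10.2% and 11%) were as low. At all 1028 lone sites the share of A exceeded the unconverted share of the gene in both libraries. The median conversion of their genes was 98.2% (5th percentile 97.2%, lowest 81.7%), against 97.7% for the other sites. The 10% limit of the lists thus fixed the outcome of the first comparison in advance at nearly all lone sites, and it adds no support for sites at that limit.

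Sites next to the coverage limit of 30 shared no one level. ENY2, with a gene coverage of 30.05, had 83.3% and 80%, and TCTA, with 30.07, had 15.6% and 19.0%. Just outside, ANAPC1P1, with 29.98, had 17.2% and 13.3%, and HMGN2P13 had 34.6% and 28.6%.

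Pseudogenes were more often single-site than protein-coding genes. Of 434 pseudogenes with a shared site and enough coverage, 239 had exactly 1 (55.1%, Wilson 50.4 to 59.7), against 745 of 4431 protein-coding genes (16.8%) and 17 of 81 long noncoding RNAs (21.0%). Of the 10 genes of other kinds, such as mitochondrial ribosomal and transfer RNAs, 6 had 1. Pseudogenes made up 23.2% of the lone sites. Median levels were 24.5% in pseudogenes, 24.0% in protein-coding genes and 32.1% in long noncoding RNAs. Reads of a processed pseudogene and of the gene it was copied from may not be separable, and the sources used here do not say how the authors assigned such reads.

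Where a pseudogene and the gene it is named after both had 1 shared site, the levels could be set side by side. There were 43 such pairs with 27 parent genes. The parents AK4, ALDH7A1, EIF4E and PSIP1 were not among the 1028 single-site genes described here. The levels differed by a median of 3.15 points, 28 pairs lay within 5 points, and in 36 the Wilson intervals overlapped. Lone sites crowd between 10% and 25%, so unrelated sites can also lie close, and the share for unrelated pairs was not computed. TMSB10P1 and TMSB10P2 had 51.2% and 51.7%, next to 51.3% in TMSB10. The 6 copies of RPSA ran from 10.7% to 14.4%, next to 11.5% in RPSA, and 3 copies of HMGN2 from 33.2% to 35.6%, next to 33.3%. In 10 pairs the pseudogene had more reads, as in DNAJC8P1 with 2013 at 50.7%, next to 234 reads at 53.9% in DNAJC8. Only 4 pairs lay more than 20 points apart. EIF4EP5 had 94.1%, next to 27.9% in EIF4E, RPS15P5 93.9%, next to 45.2% in RPS15, ALDH7A1P1 13.5%, next to 70.1% in ALDH7A1, and SEC13P1 11.03%, next to 42.4% in SEC13. The sites of EIF4E and ALDH7A1 had only 67 and 86 reads. Whether the 2 sites of a pair are the same base of the copied sequence was not tested, and some pairs differ in place. The RPL19 site lay 30 nt downstream of its start. That of RPL19P16 lay 631 nt from the start of a span of 739 bases. The RPS15 site lay 29 nt upstream of the annotated start. The counts of close and distant pairs therefore do not compare a base with its copy throughout.

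**Figure D4:**
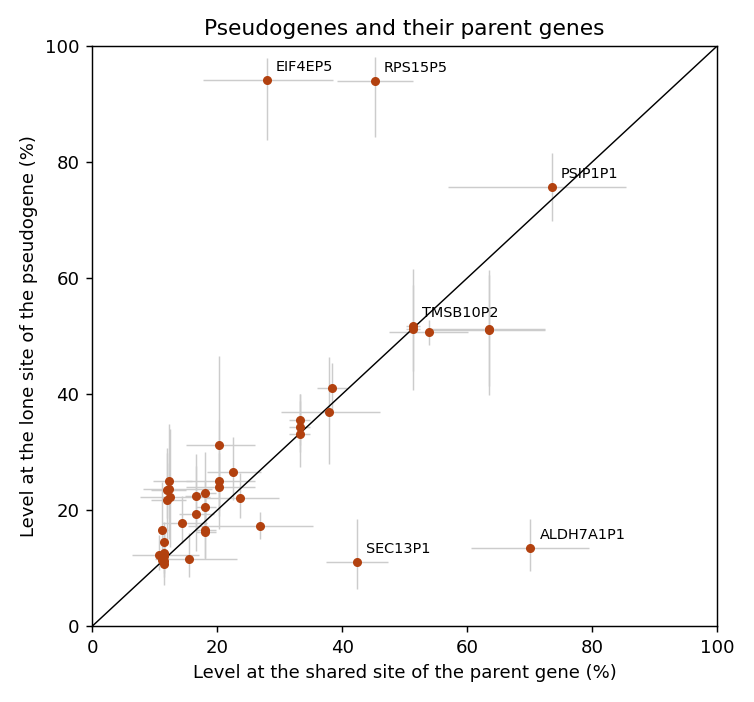
Level (percent, mean of both libraries) at the lone site of a pseudogene against that at the shared site of the gene it is named after, for 43 pairs in which both had 1 shared site. Bars are 95% Wilson intervals on summed counts and the line marks equality; most points follow the line, and EIF4EP5, RPS15P5, ALDH7A1P1 and SEC13P1 lie more than 20 points from it.

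Gene families differed widely in how many of their genes had a single site. The counts here leave pseudogenes out and take in only genes with a shared site and a gene coverage of at least 30. Family members without these are not counted, so a share is not one of the whole family. Over all genes so counted, 17.3% had 1 shared site. Because well covered genes were more often single-site, each share is also set beside the share that all genes in the same coverage classes would give. The highest class, 200 and over, is open-ended, so the match is coarse for lists of deeply covered genes. The median gene coverage was 831 in the cytosolic ribosomal protein list and 320 in the glycolysis list. The number of shared sites chose the members, so the shares and their intervals describe the lists and test nothing. The list of Sm and LSm proteins, most of them ring-forming cores of splicing and decay particles, had 9 of 14 (64.3%, Wilson 38.8 to 83.7, 22.1% at like coverage). It was drawn up by symbol and also holds genes of another kind, among the 9 SNRPA and SNRPC, proteins of the U1 particle, and LSM14A. Nuclear-encoded subunits of oxidative phosphorylation had 24 of 42 (57.1%, 42.2 to 70.9, 23.7% at like coverage), cytosolic ribosomal proteins 18 of 33 (54.5%, 38.0 to 70.2, 30.3%) and the proteasome 10 of 21 (47.6%, 28.3 to 67.6, 21.0%). Host genes of small nucleolar RNAs had 5 of 9 (55.6%, 22.0% at like coverage), and the proton-pumping V-ATPase 6 of 12 (50%, 20.3%).

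Several of these shares moved with the lists used. Counted from the sites of replicate 2 alone, 36.1% of the counted ribosomal protein genes had 1 site, and from replicate 1 alone 36.8%. From replicate 1 alone the V-ATPase list, 53.8% with its pseudogenes, came to 28.6%, and the snoRNA hosts came to 30%. Counting only genes with 1 listed site in the 2 files together gave 24.2% for ribosomal proteins, 42.9% for oxidative phosphorylation, 42.9% for Sm and LSm proteins and 28.6% for the proteasome. It gave 23.1% for the V-ATPase, 22.2% for snoRNA hosts and 0% for glycolysis and the aminoacyl-tRNA synthetases. The share over all genes was then 9.99%, in place of 20.5%. The shares in this paragraph take in pseudogenes, for the lists and for all genes.

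**Figure D5:**
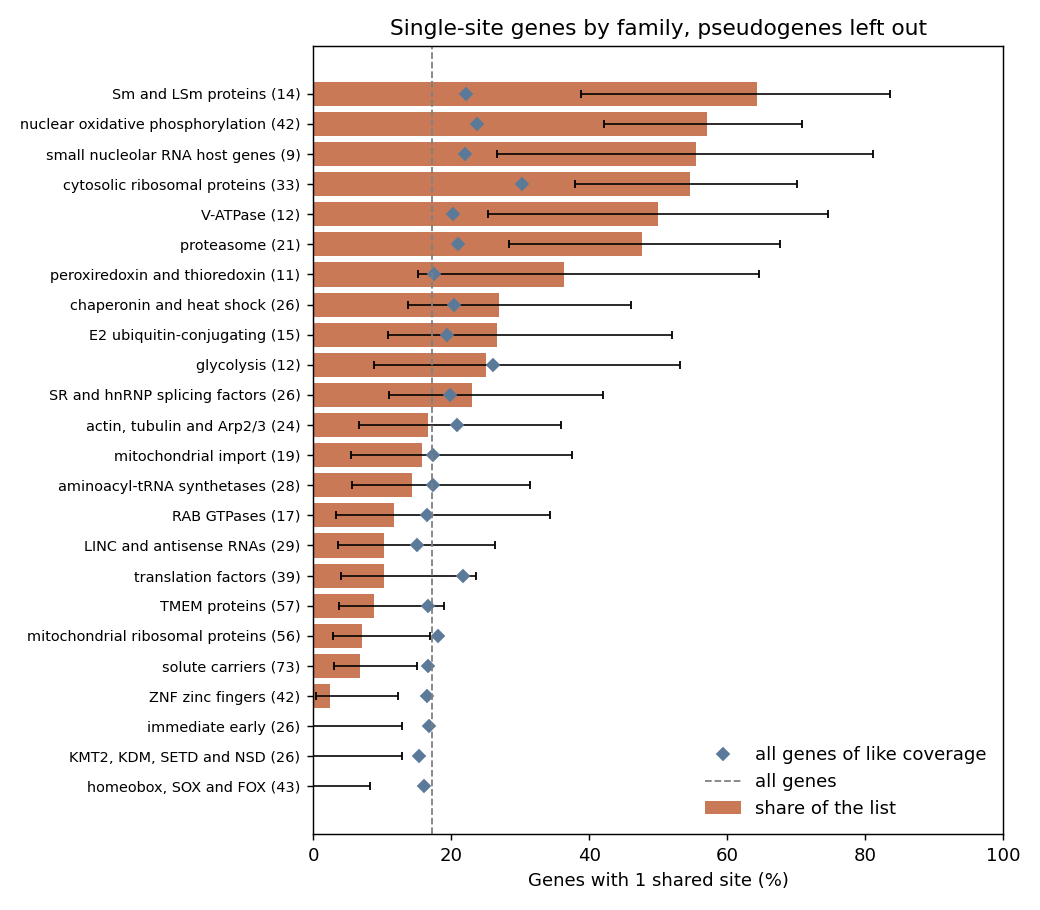
Share of genes (percent) with exactly 1 shared site in each of 24 gene lists, with the number of genes in brackets and 95% Wilson intervals as bars. Pseudogenes, and genes without a shared site or with a gene coverage below 30, are left out. Diamonds give the share in all genes of the same coverage classes, the highest of which is open-ended. The dashed line gives the share over all genes (17.3%). Shares run from 64.3% in the Sm and LSm list to 0% in the immediate early, KMT2 and homeobox lists.

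Inside oxidative phosphorylation the lone sites had a median level of 21.1% (range 11.6% to 81.9%), and 7 of the 24 lay at the first nucleotide. UQCRH, a hinge protein of complex III, had the most reads, with 16.0% of 783 and 17.1% of 853, 183 nt from the gene end. ATP5F1B, at its first nucleotide, had 54.9% and 57.7%, and ATP5MC3, a ring subunit of ATP synthase, 32.5% and 27.6%, also at the first nucleotide. NDUFB7, a complex I subunit, had 21.6% and 22.97% at 31 nt from the gene end. ATP5IF1, the inhibitor of ATP synthase, had the most sites in this list, 7.

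Cytosolic ribosomal proteins had a lone median of 18.3%. Besides RPSA and RPL27A, RPL6 had 16.7% of 1001 reads and 19.5% of 1153, RPS27 19.6% and 17.3%, and RPS15 45.4% and 45.0%, the last at a site 29 nt upstream of the annotated start. The family's gene with the most sites was RPL28, with 12 between 14.1% and 79.5%. The proteasome's lone median was 22.1%, and PSMD8, a lid subunit, was the highest with 72.5% of 295 reads and 66.6% of 290. PSMB7 had 15.6% and 20.9%, and PSMB5 the most sites, 5. Among Sm and LSm genes the median was 24.4%. LSM7 had 20.4% and 23.3%, SNRPA, a protein of the U1 particle, 21.9% and 22.4%, and SNRPE 35.4% and 37.3%, while LSM10 had 7 sites. In the V-ATPase, ATP6V0D1 was high with 76.6% and 77.8%, and ATP6V1B2, of the catalytic sector, had 24.5% and 14.1%, while ATP6V0E1 had the most sites, 6. Of the snoRNA hosts, SNHG32 had 15.1% and 17.3%, and EPB41L4A-AS1 57.8% and 52.6%, while SNHG16 had 13 sites.

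Other lists had shares between these. The list of peroxiredoxins and thioredoxins, which also takes in the glutathione peroxidase GPX5, had 4 of 11, chaperonins and heat shock proteins 7 of 26, E2 ubiquitin-conjugating enzymes 4 of 15, glycolysis 3 of 12 and SR and hnRNP splicing factors 6 of 26. With pseudogenes the chaperone list came to 34.4% and the splicing factor list to 41.7%. From replicate 1 alone, the E2 list came to 12.5% in place of 25% as listed, and from replicate 2 alone glycolysis came to 15.4% and the chaperone list to 22.9%. HNRNPM was the highest of these lone sites, with 81.7% of 273 reads and 81.2% of 277, whereas SRSF3 had 18.6% and 18.8% and SRSF9 44.7% and 48.1%. CCT5 had 18.5% and 16.9%, ALDOA 13.4% and 10.1%, and ENO2, the neuronal enolase, 15.2% and 15.9%. The conjugating enzymes UBE2S and UBE2D2 had 14.4% in both libraries and 44.4% and 40.7%. TXNRD2, a mitochondrial thioredoxin reductase, had 16.7% and 18.4%, and GPX5 30.5% and 21.3%. The genes with the most sites in these lists were TXNDC12 with 15, HSPA14 with 17, UBE2O with 25, HK2 with 14 and HNRNPF with 18.

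Actins, tubulins and Arp2/3 had 4 of 24, mitochondrial import 3 of 19, aminoacyl-tRNA synthetases 4 of 28, RAB GTPases 2 of 17 and translation factors 4 of 39. These small counts moved with the library used. From replicate 2 alone, mitochondrial import came to 5.26% in place of 15.8%, the synthetases to 6.67% in place of 14.3% and the RAB GTPases to 20% in place of 11.8%, and from replicate 1 alone mitochondrial import came to 10%. Lone sites of the synthetases ran from 11.1% to 18.1%, as in QARS1 with 14.6% and 15.6% and WARS1 with 10.9% and 11.3%. Among translation factors EIF1B had 89.7% and 85.0%, and EIF3F 25.9% and 21.5%. ARPC2, a subunit of the Arp2/3 complex, had 38.5% and 34.0%, and TIMM17B, of the inner membrane translocase, 13.2% and 14.8%. RAB11A, of recycling endosomes, had 27.5% and 24.1%, and RAB6A, of the Golgi, 70% and 70.5%. The most sites in these lists were in TUBGCP6 with 38, TIMM29 with 15, MARS2 with 24, RAB40C with 23 and EEF1D with 14.

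Of the mitochondrial ribosomal proteins, 4 of 56 had a single site (7.14%, Wilson 2.81 to 17.0, 18.1% at like coverage). This share depended on the limits: it was 18.2% over sites with at least 30 reads in both files and 2.27% at a gene coverage of at least 50. Levels of the 4 lone sites were spread widely. MRPL32 is described above, MRPL54 had 78.9% and 73.6%, MRPS23 27.7% and 29.4% and MRPL33 26.1% and 26.9%, while MRPS25 had 20 shared sites. Solute carriers had 5 of 73 (6.85%), among them SLC25A4, the mitochondrial ADP/ATP carrier, with 84.4% and 84.7%, and SLC25A26, the mitochondrial S-adenosylmethionine carrier, with 62.1% and 55.3%, while SLC7A1 had 31 sites. Transmembrane proteins of the TMEM series had 5 of 57, with 10.9% and 15.6% in TMEM14B and 32.1% and 14.9% in TMEM208, and TMEM115 had 23 sites. LINC and antisense RNAs had 3 of 29, among them EPB41L4A-AS1, given above, and SBNO1-AS1 with 23.1% and 23.5%, while LINC02693 had 30 sites. At a gene coverage of at least 50 their share was 25% in place of 10.0% as listed. Of the 42 ZNF zinc finger genes with a shared site and enough coverage, only ZNF385A had a single site, with 59.3% of 27 reads and 58.3% of 36. ZNF503 had the most sites, 29.

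No single-site gene was found among 43 homeobox, SOX and FOX genes (Wilson upper bound 8.20%), 26 genes of the KMT2, KDM, SETD and NSD families of histone methylation, or 26 immediate early genes (upper bound 12.9% each). From replicate 2 alone the histone methylation list came to 3.70%, and at a gene coverage of at least 20 to 3.125%. At like coverage all genes would give 16.0%, 15.3% and 16.8%. These regulators had many sites instead. FOXO3 had 47, KMT2D 81 and JUN 33, where the median over each list was 12, 11.5 and 12 shared sites per gene.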

How the data were processed

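GLORI libraries were made from 100 to 200 ng of mRNA each, and reads were processed by the submitters with Trim Galore 0.6.6, STAR, Bowtie and SAMtools on GRCh38, per the submitters' processing notes. The authors deposited 1 list of called sites per replicate, of 72449 and 81554 sites. Per the file headers it holds the count of A plus G reads, the count of A reads, their fraction (the level), a conversion fraction and a coverage signal for each gene, and a p-value. The sources used here do not say how the authors computed gene coverage. The deposited p-value was not used.

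Fisher's exact test, two-sided, compared the replicates with Benjamini-Hochberg adjustment over all 60462 shared sites (SciPy 1.17.1, pandas 2.3.3). On 10000 simulated sites it recovered 97.0% of 200 sites shifted by 30 points, all with at least 100 reads in each library, and was not simulated for shallower sites. Intervals for the level of 1 site are 95% Wilson intervals on summed reads and cover counting error only. Those for shares are Wilson intervals on numbers of sites or genes. Those for medians are order-statistic intervals over sites. Intervals over sites do not allow for several sites sharing a gene. With 2 libraries of 1 group, p-values cover only how these libraries vary, which may be technical.

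Gene kinds, starts and ends came from RefSeq's GRCh38.p14 (1007 of 1028 genes matched). Position counts use its gene spans, and motif counts its promoter sequences. Exons and mRNA lengths were not analysed here. Named genes were the 8 deepest lone sites, the 8 with the highest lower bound of level, the 6 lowest with at least 200 reads, the 6 deepest at a first nucleotide, the 4 deepest outside DRACH, the 3 with the smallest p, those next to the coverage limit, and in each of 24 gene lists, pseudogenes left out, the 2 deepest and the gene with most sites; others were named after their values were seen. The members, gene lists and rules were chosen with earlier results of these data known.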

Additional observations from a re-analysis of the deposited data

How the results depend on the processing

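No paired analysis was possible because there is 1 group. The count of lone sites ranged from 961 to 1038 when sites of 1 library were used alone, and fell to 500 with 1 listed site in the 2 files together. The median level (24.1%) then ranged from 19.6% to 20.4%, was 26.2% at a gene coverage of at least 20, 22.4% at 50, 22.5% with at least 30 reads in both files and 22.6% with 1 listed site. The difference from genes with several sites at like gene coverage (-12.4 points) ranged from -12.1 to -11.7 points with 1 library and was -10.9 at a coverage of at least 50. The first-nucleotide share ranged from 7.09% to 7.50% with 1 library and was 9.43% at a coverage of at least 50, 9.11% with 1 listed site and 10.2% within 5 nt. The share in the last 1000 nt ranged from 34.2% to 34.6% with 1 library. The share of genes with 1 site ranged from 18.2% to 19.0% with 1 library and was 23.1% at a coverage of at least 50, 22.9% with at least 30 reads and 9.99% with 1 listed site. Of 168 family shares under alternatives, 148 stayed within the interval of the main value and 20 did not. No value changed sign. The lower limits of the lists, 15 reads and 5 A reads, leave weak sites of shallow genes unlisted.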
